A study of Mus musculus with 42 samples.

Results

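Apln, Aplnr, Esm1, Kcne3, Plvap, Mcam, Pdgfb and Igfbp3 were followed as the tip cell and apelin genes of arterial endothelium. The 8 genes were taken by name from the expression table of the series, which held 21674 genes, by a rule that used no measured value. They and all gene lists were, however, chosen with earlier results of these data known, so their counts beside all genes are descriptive. The table covered 42 RNA-seq libraries in 23 groups: 35 libraries of RNA flushed from the inner layer (intima) of mouse carotid arteries, and 7 libraries of cultured aortic endothelial cells.

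Tip cells are the leading cells of a growing vessel sprout. They differ from the stalk cells behind them in a set of transcripts that includes the secreted peptide apelin, while its receptor is found on neighbouring endothelial and perivascular cells. Several genes of this set are also used as markers of endothelium that has been activated by growth factors or by low oxygen, and quiescent arterial endothelium, kept under steady laminar flow, has little of them.

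Flow was lowered in one carotid artery by partial ligation. The ligated artery gave the low-flow samples, the contralateral artery of ligated mice the high-flow samples, and sham-operated mice the samples at normal flow. At 48 hr the mice were male C57BL/6J of 6 to 7 weeks, and each library was a pool of flushes from 3 to 5 arteries. Untreated mice gave 3 pools each at low flow, at high flow and after sham operation, called here pools a, b and c of each group. Treated mice gave 2 libraries a group: low flow with an anti-GPIba antibody that depletes platelets, with an anti-Gr1 antibody that depletes granulocytes, with a non-specific IgG, with clodronate liposomes that deplete phagocytes, or with PBS liposomes, and high flow with IgG or with PBS liposomes. Low flow with PBS or clodronate liposomes was also sequenced once each with shorter reads. At 7 days, Rbfox2 EC-KO mice were set beside littermate controls. Both carried Rbfox2 lox/lox alleles and the Rosa26-mTmG reporter, and the EC-KO mice also had Cdh5(PAC)-CreERT2, an inducible Cre driven by an endothelial promoter. These mice were males and females of 2 to 7 months on a C57 background, and gave 3 low-flow and 2 high-flow libraries per genotype, whose columns carried the numbers 1, 4 and 5. The cultures, 1 library each, were 1 TetOn-SV40 immortalised line with SV40 switched off, kept without additions or given plasma, platelets with macrophages, or all of these, and primary endothelial cells that were sorted for eGFP or came from Rbfox2 EC-KO and control mice. The study calls the untreated, anti-GPIba and IgG samples and the repeated EC-KO comparison biological replicates. Where no source says that the libraries of a group came from separate animals, p-values measure only the spread between these libraries, part of which may be technical.

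Levels are given as FPKM, the expected count scaled to the effective length of the gene and to the total count of the library, and fold changes come from edgeR with TMM scaling, which is a different scaling from the library totals behind FPKM. Library totals ran from 4064477 to 19035957. The untreated low-flow pools a and b stood apart: the 100 most abundant genes took 50.8% and 52% of their counts, against 27.3% to 29.6% in the other 7 untreated pools, and Actb alone took 10.6% and 10.1%. In the comparison of low with high flow, TMM raised log2 fold changes by 0.71 against library totals (0.76 in the comparison with sham). Of the genes called, 51% were higher at low than at high flow with TMM and 25.3% with library totals, and 51.2% and 19.1% were higher at low flow than after sham. Among defining endothelial genes none was absent from any carotid group: the summed share of 11 of them was 0.491% to 0.635% of counts in untreated low-flow pools, 1.07% to 1.23% at high flow and 0.979% to 1.27% after sham. In such bulk samples fewer cells of a type and less RNA per cell cannot be told apart.

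Start-site sequences are shown for the apelin, Esm1 and Igfbp3 genes because the pairs of Apln with Esm1 and with Igfbp3 were the most alike in level in the data below. They are RefSeq sequences on GRCm38.p6, 250 bases before to 50 bases after a start, and 5 of the 8 genes had an entry. Aplnr, Plvap and Pdgfb had none. Each is written 5′ to 3′ on its own strand, and capitals mark matches to CACCC, the core of sites for Krueppel-like factors, on either strand.
Apln, chrX:48034804-48035103, minus strand: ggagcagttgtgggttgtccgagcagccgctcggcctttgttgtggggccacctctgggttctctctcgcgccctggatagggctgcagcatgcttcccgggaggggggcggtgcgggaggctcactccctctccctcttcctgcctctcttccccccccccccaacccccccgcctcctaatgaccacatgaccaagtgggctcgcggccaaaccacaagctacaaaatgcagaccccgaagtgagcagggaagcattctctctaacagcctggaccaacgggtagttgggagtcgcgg
Esm1, chr13:113209409-113209708, plus strand: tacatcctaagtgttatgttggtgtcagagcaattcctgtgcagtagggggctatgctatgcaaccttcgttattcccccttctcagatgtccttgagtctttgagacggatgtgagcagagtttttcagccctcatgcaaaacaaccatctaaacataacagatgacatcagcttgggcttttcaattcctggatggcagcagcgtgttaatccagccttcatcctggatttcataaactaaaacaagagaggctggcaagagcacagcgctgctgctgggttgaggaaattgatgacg
Igfbp3, chr11:7213874-7214173, minus strand: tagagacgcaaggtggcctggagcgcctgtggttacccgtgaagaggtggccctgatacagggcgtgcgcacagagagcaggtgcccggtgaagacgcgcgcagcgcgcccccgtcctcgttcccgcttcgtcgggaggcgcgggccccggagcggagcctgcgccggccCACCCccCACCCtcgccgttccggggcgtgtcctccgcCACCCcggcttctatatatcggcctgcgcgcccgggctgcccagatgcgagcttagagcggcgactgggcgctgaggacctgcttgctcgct

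The Igfbp3 window held 3 matches to CACCC, as did 1 of the 2 windows of Kcne3, and those of Apln, Esm1 and Mcam and the other window of Kcne3 held 0, while 57.5% of 32851 RefSeq windows of this length held at least 1. ACGTG, the core of hypoxia-inducible factor sites, occurred in 19.6% of all windows, and CATTCC, the core of TEAD sites, in 14.7%. Among the 6 windows of these genes ACGTG occurred once, in 1 of the 2 windows of Kcne3, and CATTCC in none. The G+C content was 64% in the Apln window, 46.3% in that of Esm1 and 71.7% in that of Igfbp3. A missing match says only that these letters are not in the window. On mm9 the 3 genes lie on chrX:45378323-45388030, chr13:113999867-114008306 and chr11:7106089-7113926, with 3, 3 and 5 exons in their longest transcripts.

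In untreated mice at 48 hr, low flow was compared with high flow to ask which of these genes answer a drop in flow. Apelin, endocan (Esm1) and Igfbp3 went from near the detection limit to plainly expressed, Mcam and Pdgfb rose less, and Plvap fell. Of the 8 genes 7 passed the filter on low counts and 6 were called at an adjusted p under 0.05 (edgeR), 5 of them higher and 1 lower. Among all 11236 genes tested, 46.2% were called, 23.6% higher and 22.6% lower. The median log2 fold change of the 7 tested genes was 2.10, and that of all genes tested was −0.07.

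Apln, which encodes the apelin peptide, was at 2.84, 2.02 and 3.39 FPKM in the low-flow pools a, b and c and at 0, 0.109 and 0 in the high-flow pools. The groups did not overlap, and the high-flow pools together held 2 counts, against 143 at low flow. Per library total this is a ratio of 62.9, with a 95% counting interval of 17.1 to 524 (exact binomial, counting error only, since PCR copies are not separate molecules). The log2 fold change was 6.38 ± 0.60 (SE, adjusted p = 1.5e-05 by edgeR). A library listed at 0 could hold up to 0.220 to 0.234 FPKM at 3 counts. Aplnr, the G-protein-coupled apelin receptor, a gene of 1 exon (chr2:84976517-84980079), had 2 counts in all in each of the 3 untreated groups, below the filter. No difference in the receptor was detectable at this depth.

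Esm1 encodes a proteoglycan secreted by endothelium and a standard tip cell marker. Its level was 29.8, 47.3 and 62.0 FPKM at low flow and 0, 1.93 and 0 FPKM at high flow. Every low-flow pool was above every high-flow pool, by a log2 fold change of 6.60 ± 0.67 (SE, adjusted p = 2.6e-05). Pool b held every high-flow count of Apln and Esm1. Without it the fitted log2 fold changes were 8.73 for Apln and 12.16 for Esm1, values that depend on the prior count because the other high-flow pools were listed at 0. The Esm1 gene overlaps Gzmk on the other strand and shares 0 exon bases with it. Igfbp3, an extracellular binding protein for insulin-like growth factors, was at 9.75, 9.03 and 14.1 FPKM at low flow and at 0.102, 0.0715 and 0.0960 FPKM at high flow. Each high-flow pool held 1 count, so the ratio of 126 per library total has a counting interval of 42.7 to 612. The log2 fold change of Igfbp3 was 7.46 ± 0.36 (SE, adjusted p = 1.2e-06), the largest of the 7 tested genes.

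Mcam (CD146), an adhesion molecule of endothelium that smooth muscle and pericytes also carry, was at 21.6, 28.4 and 41.3 FPKM at low flow and at 11.4, 11.7 and 11 at high flow. The high-flow pools were close to each other and the low-flow pools spread over a wider range above them. The log2 fold change was 2.10 ± 0.19 (SE, adjusted p = 1.4e-05), and 1.42 with library totals. Mcam shares 17 exon bases with Gm10687 on the other strand, and reads there cannot be told apart. Pdgfb, the ligand by which tip cells attract pericytes, was at 6.00, 5.96 and 20.9 FPKM at low flow and at 3.19, 4.99 and 4.17 FPKM at high flow. Pool c was far above pools a and b, and even these were above the high-flow pools. Its log2 fold change was 1.92 ± 0.27 (SE, adjusted p = 2.3e-04) and 1.41 with library totals.

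Plvap forms the diaphragms of fenestrae and caveolae and is abundant in capillaries. It was at 8.57, 6.76 and 12.5 FPKM at low flow and at 28.4, 36.9 and 34.4 FPKM at high flow, without overlap. It fell by 1.17 ± 0.18 on the log2 scale (SE, adjusted p = 5.1e-04). Kcne3, a subunit that modifies voltage-gated potassium channels and another gene of the tip cell set, was at 5.42, 1.82 and 6.87 FPKM at low flow and at 15.1, 10.4 and 16.0 FPKM at high flow. Its groups did not overlap in FPKM, but on the TMM scale they did, and its log2 fold change of −0.87 ± 0.35 did not pass the threshold (SE, adjusted p = 0.065, and 0.025 with library totals). With pools a and b left out, an alternative chosen after the data were seen, the same 6 genes were called from pool c alone, where 22.4% of 12170 genes were called, and Kcne3 had an adjusted p of 0.13. The low-flow arm was then 1 pool, assumed to vary like the high-flow pools. Kcne3 passed without low-flow pool a (adjusted p = 0.031) and, just under the threshold at a rounded adjusted p of 0.05, without high-flow pool b. It was also called lower with no filter on low counts, where 5682 of 17743 genes were called.

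Other cell types moved with flow in the same pools. Summed over 8 smooth muscle genes, the share of counts was 0.233% to 0.431% at low flow and 0.0527% to 0.0622% at high flow. The shares of 10 macrophage genes were 0.0215% to 0.0532% and 0.00376% to 0.00714%, and those of 9 neutrophil genes 0.0247% to 0.0487% and 0.000749% to 0.0024%. Capillary genes, 6 of 7 in the table, were at 0.00252% to 0.00948% at low flow and 0.0308% to 0.0341% at high flow, the direction in which Plvap moved. The part of these cells in the levels of Mcam, Pdgfb and Plvap was not tested.

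**Figure D1:**
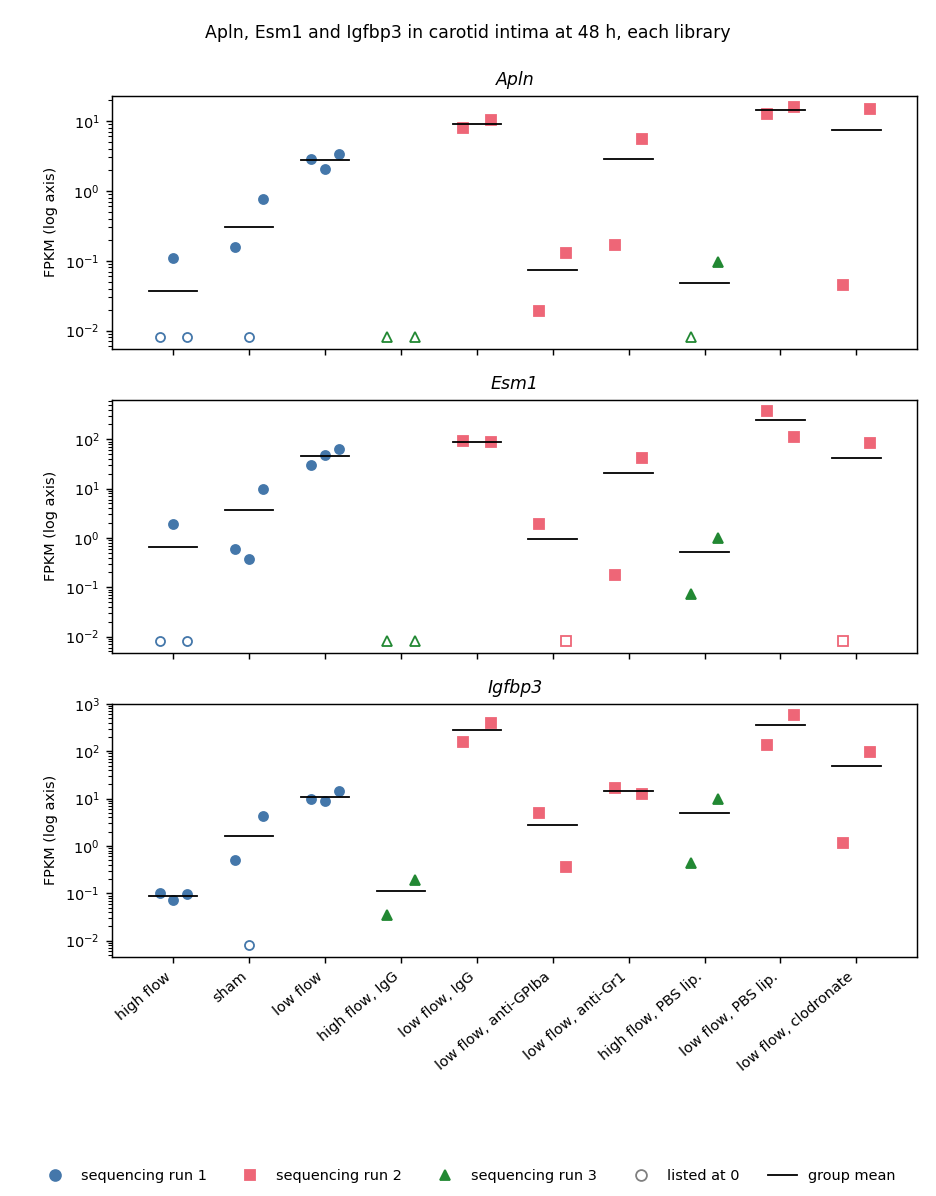
Levels of Apln, Esm1 and Igfbp3 at 48 hr in FPKM on a log axis, 1 point a library, with group means as black lines and open symbols at the bottom for libraries listed at 0. In untreated mice (run 1) all low-flow pools lay above all sham and high-flow pools. In treated mice the anti-GPIba libraries lay far below those with IgG, while the 2 anti-Gr1 and the 2 clodronate libraries were far apart for Apln and Esm1.

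Low flow was also compared with sham operation, sharing the low-flow pools with the comparison above. The same 6 of the 7 tested genes were called, 5 higher and 1 lower, where 40.3% of all 11164 genes tested were called, 20.6% higher and 19.7% lower. The sham pools differed among themselves. Pool c held 0.75 FPKM of Apln, against 0.158 and 0 in pools a and b. Esm1 was at 0.605, 0.377 and 9.93 FPKM in sham pools a, b and c, and Igfbp3 was at 0.516, 0 and 4.37. All 3 genes were thus highest in sham pool c, and still below every low-flow pool. The log2 fold changes from sham to low flow were 3.78 ± 0.64 for Apln (adjusted p = 0.0036), 4.32 ± 0.88 for Esm1 (adjusted p = 0.0071) and 3.38 ± 0.77 for Igfbp3 (SE, adjusted p = 0.01). Without sham pool c they were 5.70, 7.27 and 6.08. DESeq2 did not call Igfbp3 here (adjusted p = 0.072).

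Mcam was at 16.1, 13.5 and 23.6 FPKM after sham and Pdgfb at 8.30, 8.70 and 8.79. In FPKM both genes overlapped between low flow and sham, and on the TMM scale neither did. Mcam was higher at low flow by 1.49 ± 0.26 on the log2 scale (adjusted p = 0.0038) and Pdgfb by 0.90 ± 0.24 (SE, adjusted p = 0.019). With library totals the calls of both were lost (log2 fold changes of 0.78 and 0.35, adjusted p = 0.17 and 0.59), and Kcne3 was called instead (adjusted p = 0.027). Without sham pool a, Pdgfb had an adjusted p of 0.067, and the calls over all genes went from 4499 to 2513. Plvap stood at 37.0, 32.9 and 31.4 FPKM after sham, all above low flow, and fell by 1.15 ± 0.18 on the log2 scale at low flow (SE, adjusted p = 0.0026). Kcne3 was at 17.5, 10.5 and 14.4 FPKM after sham, with an adjusted p of 0.084. Smooth muscle genes were at 0.233% to 0.431% of counts at low flow and 0.0446% to 0.163% after sham. Macrophage genes were at 0.0215% to 0.0532% and 0.00798% to 0.018%, and neutrophil genes at 0.0247% to 0.0487% and 0.0014% to 0.00449%. Capillary genes were at 0.00252% to 0.00948% and 0.0185% to 0.0222%, and endothelial genes at 0.491% to 0.635% and 0.979% to 1.27%. The part of these cells was not tested. When low-flow pool c stood alone against sham, none of the 7 tested genes was called by edgeR, 6 had an unadjusted p under 0.05, and the adjusted p were 0.059 to 0.21. Of all 12187 genes tested 0% were called there, with 3110 at an unadjusted p under 0.05.

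High flow was set beside sham with the same pools. Of the 4 genes that passed the filter none was called, though 2 had an unadjusted p under 0.05, and 0% of all 11030 genes tested were called by edgeR, which gave 868 genes at an unadjusted p under 0.05. DESeq2 called 101 genes, Pdgfb among them. With no filter edgeR called 63 of 18114 genes, and without sham pool b 78 of 11298, none of the 8 in either. Pdgfb was below every sham pool in every high-flow pool (log2 fold change −1.01, edgeR adjusted p = 0.31, DESeq2 adjusted p = 0.049), and so was Mcam (−0.60, edgeR adjusted p = 0.51). Apln and Igfbp3 were below the filter, with 2 and 3 counts at high flow against 13 and 54 after sham. Sham pool c held 11 of the 13 counts of Apln and 49 of the 54 of Igfbp3, so that these sums rest on 1 pool.

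In treated mice the comparison of low with high flow could be repeated at higher depth, with 2 libraries a group. The low-flow and high-flow libraries were sequenced in different runs, so that flow and run cannot be told apart there. With IgG 5 of the 8 genes were called, all higher at low flow, where 40.5% of 13401 genes were called and 22.8% were called higher. With PBS liposomes the same 5 genes were called, where 35% of genes were called and 19.6% were called higher. The 5 were Apln, Esm1, Igfbp3, Mcam and Pdgfb.

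Apln was at 7.84 and 10.1 FPKM at low flow with IgG, and both high-flow libraries were listed at 0. With the high-flow group set at its floor of 3 counts per library, Apln was at least 116-fold higher (adjusted p = 0.022), and Esm1 at least 751-fold higher (adjusted p = 0.036). Esm1 was at 91.3 and 86.7 FPKM at low flow with IgG and listed at 0 in both high-flow libraries. Apln with PBS liposomes was at 12.5 and 15.7 FPKM at low flow and at 0 and 0.0945 at high flow (log2 fold change 8.24, adjusted p = 0.024). Neither gene had a low-flow library near a high-flow one. Esm1 with PBS liposomes was at 372 and 109 FPKM at low flow, the former its highest level in the series, and at 0.0737 and 0.978 at high flow (log2 fold change 8.94, adjusted p = 0.04).

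Igfbp3 was at 158 and 402 FPKM at low flow with IgG and at 0.0354 and 0.192 at high flow, which gave a log2 fold change of 11.11 ± 2.56 (SE, adjusted p = 0.0069). With PBS liposomes it was at 133 and 582 FPKM at low flow and at 0.440 and 9.59 at high flow (log2 fold change 6.27, adjusted p = 0.026). The libraries of a group differed several-fold, and the flow groups did not overlap. Mcam was at 102 and 114 FPKM at low flow and 28.8 and 38.4 FPKM at high flow with IgG (log2 fold change 1.60 ± 0.35, SE, adjusted p = 0.0053), and rose by 1.63 with PBS liposomes (adjusted p = 0.0052). Pdgfb was at 57.8 and 53.3 FPKM at low flow and 10.2 and 14.3 FPKM at high flow with IgG (log2 fold change 2.09 ± 0.43, SE, adjusted p = 0.0042), and rose by 2.23 with PBS liposomes (adjusted p = 0.0034). Over all genes, leaving out 1 library took the calls from 5422 to 2141 to 4231 with IgG and from 4692 to 1482 to 3839 with PBS liposomes. With 1 library left out at a time, the call of Esm1 was lost whichever it was (adjusted p = 0.06 to 0.13 with IgG and 0.071 to 0.21 with PBS liposomes). The call of Apln was lost without either high-flow library with IgG or low-flow library 2 with IgG (adjusted p = 0.064 to 0.095), and without any one library of the PBS set (rounded adjusted p of 0.05 to 0.15). Igfbp3 lost its call without high-flow library 1 with IgG (adjusted p = 0.057), and in the PBS set without high-flow library 1 (0.15) or low-flow library 2 (0.11). Mcam lost it without high-flow library 1 of the PBS set (adjusted p = 0.06). Pdgfb was called in each of these fits (adjusted p = 0.0067 to 0.04).

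Other cell types moved with flow in the treated sets too. Smooth muscle genes were at 0.437% to 0.472% of counts at low and 0.0509% to 0.0766% at high flow with IgG, and at 0.302% to 0.589% and 0.0485% to 0.0924% with PBS liposomes. Macrophage genes were at 0.0474% to 0.0533% and 0.00313% to 0.00878% with IgG, and at 0.0236% to 0.0378% and 0.00416% to 0.00655% with PBS liposomes. Neutrophil genes were at 0.0117% to 0.034% and 0.000806% to 0.00636% with IgG, and at 0.0101% to 0.0298% and 0.000618% to 0.00212% with PBS liposomes. Capillary genes were at 0.0119% to 0.0211% at low and 0.0841% to 0.114% at high flow with IgG. With PBS liposomes they were at 0.0091% to 0.0107% and 0.0352% to 0.0397%. They were thus lower at low flow in both sets, while Plvap was not called in either. The part of these cells in the levels of Mcam, Pdgfb and Plvap was not tested.

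Plvap, which had fallen in untreated mice, was not called in either treated set, and the difference between the sets was not tested. It was at 240 and 281 FPKM at low flow and 281 and 230 at high flow with IgG (adjusted p = 0.91), and at 402 and 326 against 365 and 599 with PBS liposomes (adjusted p = 0.53). The level of Plvap went with the run: it was 6.76 to 62.8 FPKM in the carotid libraries of 100 bp reads and 111 to 599 FPKM in those of 150 bp reads. Kcne3 was at 4.40 and 8.89 FPKM at low flow and 7.69 and 5.42 at high flow with IgG, overlapping. With PBS liposomes it was at 2.60 and 7.28 FPKM at low flow, below the 8.73 and 8.34 at high flow, with an adjusted p of 0.45. Aplnr was at 0.195 and 0.292 FPKM in the low-flow libraries with IgG and listed at 0 in both high-flow libraries, with an adjusted p of 0.059 by edgeR and a call by DESeq2. With PBS liposomes Aplnr overlapped between flows, at 0.0174 and 0.312 FPKM at low and 0.232 and 0.166 at high flow (adjusted p = 0.94).

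**Figure D2:**
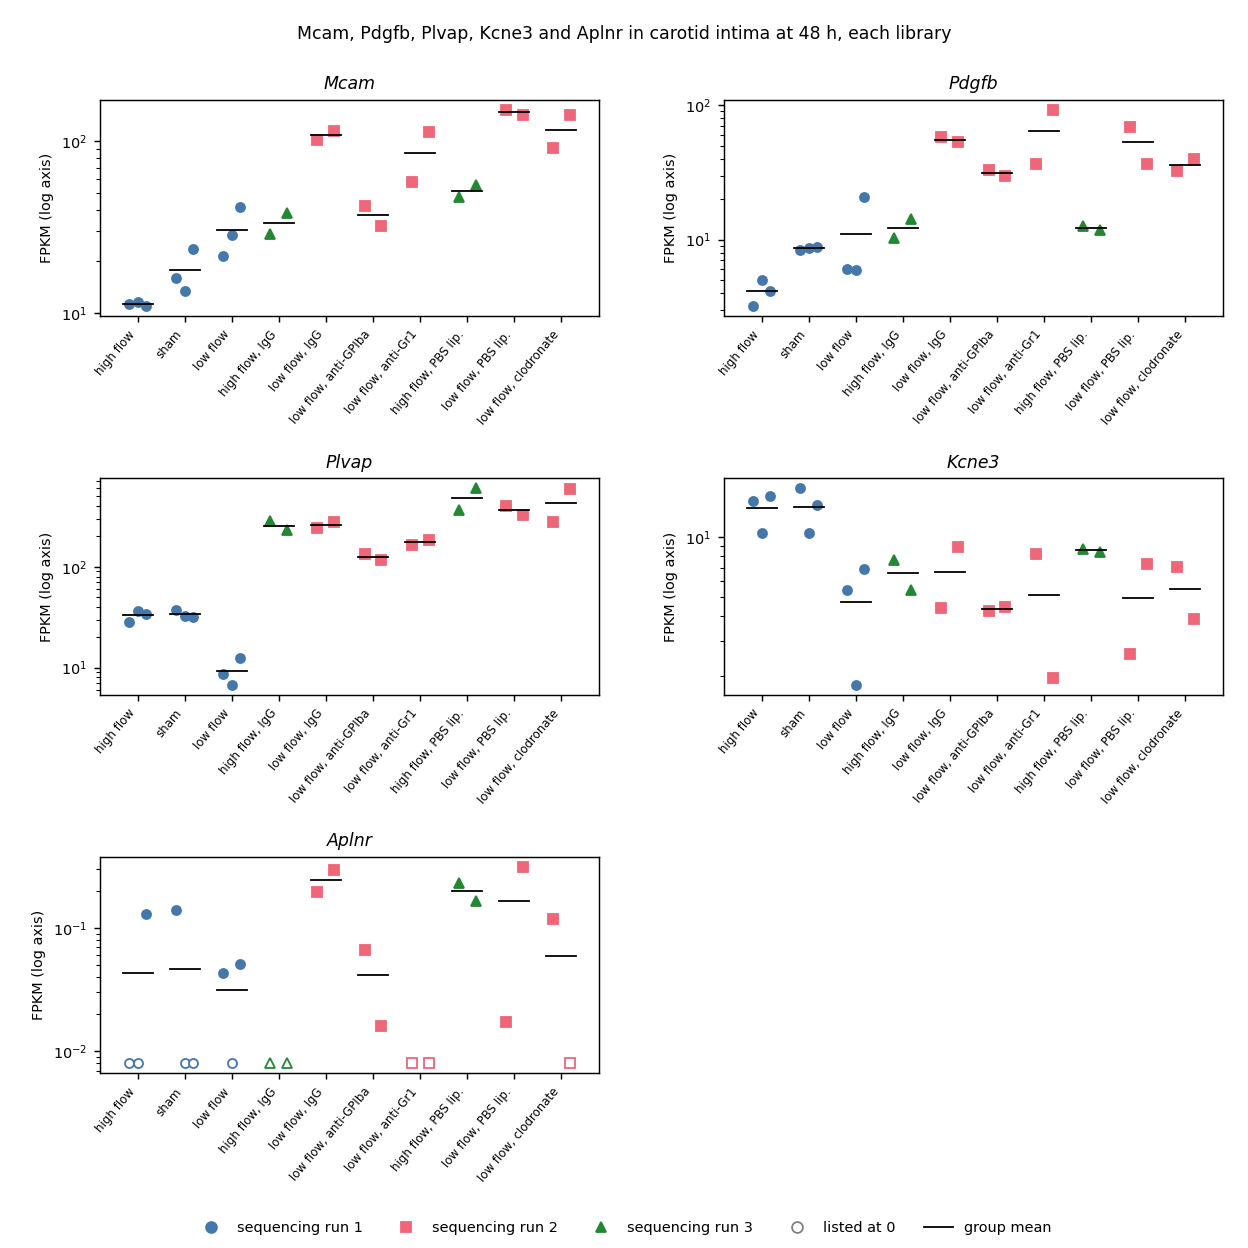
Levels of Mcam, Pdgfb, Plvap, Kcne3 and Aplnr at 48 hr in FPKM on log axes, 1 point a library, coloured by sequencing run, with group means as lines and open symbols for 0. Mcam and Pdgfb were higher at low than at high flow in both treated sets. Plvap was under 40 FPKM in untreated pools of run 1 and above 100 FPKM in runs 2 and 3.

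Platelets were depleted with anti-GPIba to ask whether the low-flow response needs them, and the depleted libraries were compared with IgG in the same run. Igfbp3 and Mcam fell, and 2 of the 8 genes were called where 16.5% of 13401 genes were called and 10.5% were called lower. The median log2 fold change of the 8 genes was −2.06 and that of all genes −0.04. All 8 genes had lower means than with IgG, and 5 had an unadjusted p under 0.05.

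Igfbp3 was at 5.08 and 0.361 FPKM with anti-GPIba, against 158 and 402 with IgG. It fell by 6.73 ± 1.97 on the log2 scale (SE, adjusted p = 0.041). Mcam was at 42.0 and 32.0 FPKM with anti-GPIba, close to its high-flow level with IgG, and fell by 1.58 ± 0.35 on the log2 scale (SE, adjusted p = 0.025). Apln was at 0.0189 and 0.129 FPKM with anti-GPIba, both libraries far below the 7.84 and 10.1 of IgG, but its log2 fold change of −6.90 ± 2.22 had an adjusted p of 0.056. Esm1 was at 1.94 FPKM in one anti-GPIba library and listed at 0 in the other (log2 fold change −6.55 ± 2.65, SE, adjusted p = 0.10). Plvap was at 135 and 117 FPKM with anti-GPIba, without overlap with IgG (log2 fold change −1.08 ± 0.35, SE, adjusted p = 0.054). Without any one of the 4 libraries no gene of the 8 was called, and the adjusted p of Igfbp3 and Mcam were then 0.063 to 0.21 and 0.053 to 0.15. Over all genes tested the count then went from 2216 to 15 and 1 without anti-GPIba library 1 or 2, and to 83 and 89 without IgG library 1 or 2. With the 2 groups fitted alone 6 of the 8 genes were called, where 34.5% of 12892 genes were called. With DESeq2, which called 27.3% of 13485 genes, 4 of the 8 were called, which added Apln (adjusted p = 0.014) and Plvap (adjusted p = 0.016).

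Pdgfb was at 32.7 and 29.8 FPKM with anti-GPIba (adjusted p = 0.16), Kcne3 at 4.24 and 4.46 (adjusted p = 0.50) and Aplnr at 0.0663 and 0.0162 (adjusted p = 0.27). Markers of several cell types moved with the depletion. Platelet genes were at 0.00228% to 0.00286% of counts with anti-GPIba and 0.00336% to 0.00379% with IgG, against 0.00249% to 0.00285% at high flow with IgG. Fibroblast genes were higher with anti-GPIba, at 0.0434% to 0.0896% against 0.0167% to 0.0232% with IgG. The summed smooth muscle genes were at 0.0724% to 0.102% of counts with anti-GPIba and 0.437% to 0.472% with IgG, near the 0.0509% to 0.0766% of high flow with IgG. Macrophage genes were at 0.0108% to 0.0111% and 0.0474% to 0.0533%, neutrophil genes at 0.000787% to 0.00132% and 0.0117% to 0.034%, and endothelial genes at 1.21% to 1.22% and 0.568% to 0.698%. Capillary genes were higher with anti-GPIba, at 0.0291% to 0.0459% against 0.0119% to 0.0211% with IgG, while Plvap was lower without a call. The part of these cells in the levels of Igfbp3, Mcam and Plvap was not tested.

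With anti-Gr1, compared with the same IgG libraries, no gene of the 8 was called and 2, Aplnr and Igfbp3, had an unadjusted p under 0.05, and 0% of 13401 genes were called by edgeR, against 2432 at an unadjusted p under 0.05 and 142 called by DESeq2, none of them one of the 8. The 2 anti-Gr1 libraries were unlike each other. Library 1 held 0.17 FPKM of Apln and library 2 held 5.58, and Esm1 was at 0.174 and 42.0. Library 1 was thus far below both IgG libraries in both genes, and library 2 much nearer to them (log2 fold changes of Apln and Esm1 −1.59 and −2.01, adjusted p = 0.61 and 0.62). Igfbp3 was at 16.7 and 12.7 FPKM, both below IgG (log2 fold change −4.25, adjusted p = 0.25). Aplnr was listed at 0 in both anti-Gr1 libraries, against 0.195 and 0.292 FPKM with IgG (unadjusted p = 0.018, adjusted p = 0.24 by edgeR). With the 2 groups fitted alone Igfbp3 was the one gene of the 8 called, where 1.76% of 12811 genes were called. Smooth muscle genes differed between the 2 anti-Gr1 libraries, from 0.18% to 0.623% of counts. Neutrophil genes were at 0.00168% to 0.00305% with anti-Gr1 and 0.0117% to 0.034% with IgG. Endothelial genes were at 0.944% to 1.03% and 0.568% to 0.698%, and macrophage genes, overlapping, at 0.0364% to 0.0587% and 0.0474% to 0.0533%. The part of these cells was not tested.

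Clodronate liposomes gave a like split against PBS liposomes. None of the 8 genes was called, where 0.119% of genes were called and 2002 genes, but none of the 8, had an unadjusted p under 0.05. DESeq2 called none of the 8 genes. Apln was at 0.0445 and 14.8 FPKM in clodronate libraries 1 and 2 (log2 fold change −1.0, adjusted p = 0.80), Esm1 at 0 and 83.6 (−2.61, adjusted p = 0.58) and Igfbp3 at 1.14 and 97.3 (−2.93, adjusted p = 0.41). In all 3 genes library 1 was the low one and library 2 was within the range of the PBS libraries for Apln and below it for Esm1 and Igfbp3. Macrophage genes were low in both clodronate libraries, at 0.00419% to 0.00605% of counts against 0.0236% to 0.0378% with PBS liposomes. Neutrophil genes were at 0.00283% to 0.00338% against 0.0101% to 0.0298%, smooth muscle genes at 0.244% to 0.27% against 0.302% to 0.589% and endothelial genes at 0.745% to 1.12% against 0.542% to 0.544%, and the part of these cells was not tested. Without library 2 Igfbp3 was called (log2 fold change −8.40, adjusted p = 0.046), where 6.69% of 13997 genes were called and the clodronate arm was 1 library, assumed to vary like the other groups.

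**Figure D3:**
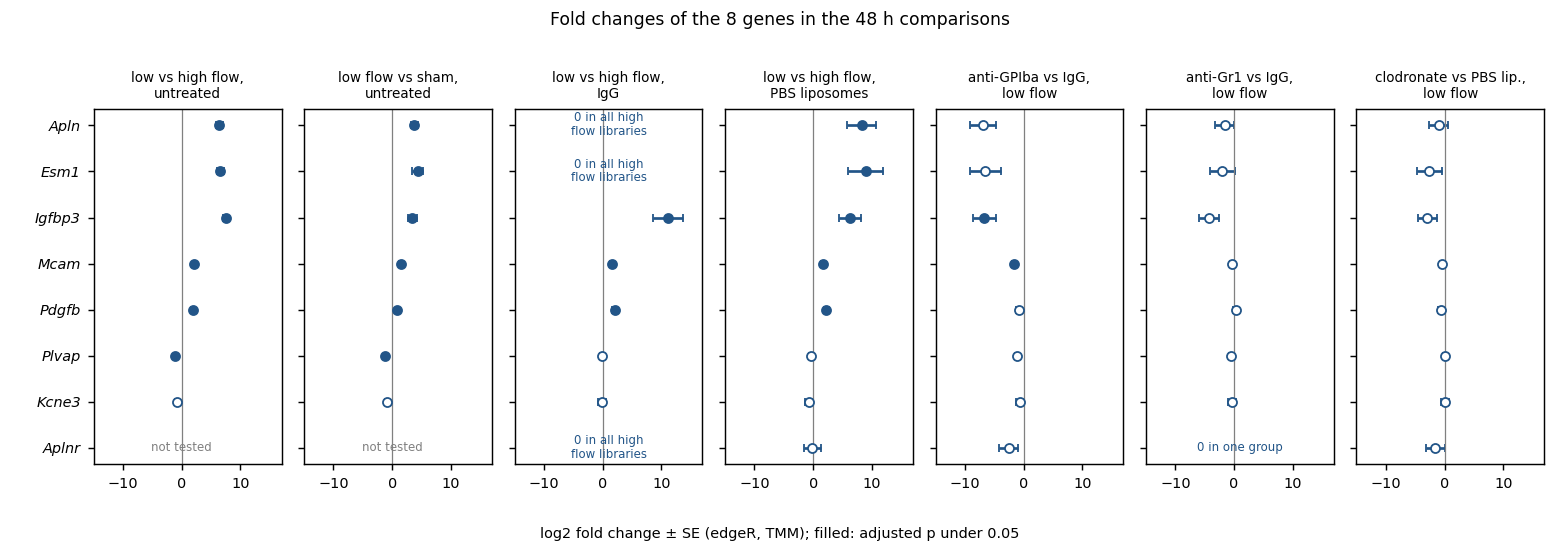
Log2 fold changes of the 8 genes in 7 comparisons at 48 hr, as points with their SE from edgeR with TMM scaling. Filled points had an adjusted p under 0.05, and where a group was listed at 0 the panel says so in place of a point. Igfbp3, Mcam and Pdgfb lie to the right of 0 in the 4 panels of low flow against high flow or sham, as do Apln and Esm1 in the 3 where they have a point, and with anti-GPIba Igfbp3 and Mcam are filled to the left of 0.

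The other genes of these pathways were taken from lists. In untreated mice, 16 of the 22 tested of 26 further tip cell genes were higher at low than at high flow and 0 lower (median log2 fold change 1.27), where 23.6% of all genes tested were higher and 22.6% lower. With library totals 8 were higher and 1 lower, where 9.29% of all genes were higher and 27.4% lower. Against sham 11 of 23 were higher and 0 lower, where 20.6% of all genes were higher and 19.7% lower. In treated mice 11 of 26 were higher and 2 lower at low than at high flow with IgG, where 22.8% of all genes were higher and 17.7% lower, and 7 of 26 higher and 1 lower with PBS liposomes, where 19.6% and 15.5% were. At 7 days 1 of 26 was higher in each genotype and 0 lower. Of all 13352 genes tested there, 128 were higher and 192 lower in controls, and 47 higher and 99 lower in EC-KO mice. Angpt2, the Tie2 ligand released by activated endothelium, was at 144 ± 38.9 FPKM at low flow (SD, n = 3) and 1.14 ± 0.395 FPKM at high flow, which gave log2 7.73 ± 0.47 for the fold change (SE, adjusted p = 2.0e-06). Fscn1, an actin-bundling protein of filopodia, was at 3.62 ± 1.03 and 0.14 ± 0.107 FPKM (log2 fold change 5.34, adjusted p = 1.8e-05). Both were lower with anti-GPIba than with IgG, Angpt2 by a log2 fold change of −4.10 (adjusted p = 0.026) and Fscn1 of −4.95 (adjusted p = 0.04), and of the 26 tip cell genes 7 were lower there and 1 higher, where 10.5% of all genes were lower and 6.05% higher.

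The families of the 8 genes did not move as one. Beside Apln, 5 of 7 further genes of the apelin axis were tested at low against high flow. Arrb2, a beta-arrestin, was higher (log2 fold change 1.67, and not called with library totals), while Mme, a peptidase that can cleave apelin, was lower (−4.61, adjusted p = 0.001) and so was Arrb1 (−0.55, adjusted p = 0.035). Of 5 further PDGF ligands and receptors 3 were lower and 0 higher, where 22.6% of all genes tested were lower and 23.6% higher. Among the 3 were the ligands Pdgfc (−2.78, adjusted p = 0.0016) and Pdgfa (−1.33, adjusted p = 0.0028), opposite to Pdgfb. In treated mice Pdgfc was lower too (−3.24 with IgG and −2.67 with PBS liposomes, adjusted p = 0.0017 and 0.0038), while Pdgfa was not called (−0.69 and 0.34, adjusted p = 0.058 and 0.34). Of 9 genes of the IGF axis 8 were tested, 4 were lower and 0 higher, with Igf2 (−3.28) and Igfbp5 (−3.22) lowest, opposite to Igfbp3. The share of all genes lower there was 22.6%. Against sham 2 of 8 were lower and 0 higher, where 19.7% of all genes were lower. In treated mice 3 of 9 were lower and 0 higher with IgG (17.7% of all genes lower). With PBS liposomes 2 of 9 were lower and 1 higher (15.5% lower and 19.6% higher). Of 5 channel partners and relatives of Kcne3 only Kcnq1 was tested, and it was lower (−0.75, adjusted p = 0.012). With library totals 5 PDGF and 5 IGF genes were lower and 0 higher, where the median log2 fold change of all genes was −0.69. There 27.4% of all genes were lower and 9.29% higher, so that calls of lower genes rose over the whole table. With low-flow pool c alone 3 PDGF and 2 IGF genes were lower and 0 higher, and 12 of 24 tip cell genes were higher and 1 lower, where 14.2% of all genes were higher and 8.21% lower.

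At 7 days the flow comparison was made in control and in Rbfox2 EC-KO mice, fitted together. Rbfox2 itself was at 2.74 to 5.73 FPKM in the control libraries and at 0.169 to 1.09 FPKM in the EC-KO libraries. None of the 8 genes was called between low and high flow in controls, where 2.4% of 13352 genes were called, nor in EC-KO mice, where 1.09% were called. These shares rest on single libraries: the 320 calls in controls became 3897 without low-flow library 1 and 3 to 52 without any other library, and the 146 in EC-KO mice became 1 to 15 without any one. With the 2 groups alone they were 3 and 858. At an unadjusted p under 0.05 there were 4 of the 8 genes in controls and 5 in EC-KO mice. DESeq2 called 3 in controls (Apln, Esm1 and Igfbp3), where it called 16.3% of 13527 genes, and 2 in EC-KO mice (Igfbp3 and Plvap), where it called 7.17% of 13221. With the library number as a block edgeR called 4 in controls (Apln, Esm1, Igfbp3 and Mcam, all higher), where 22% of genes were called. In EC-KO mice it called 4 with the block (Apln, Esm1 and Igfbp3 higher, Plvap lower), where 9.86% were called. Within the run that holds most libraries the same genes were called, where 32.5% of 13563 genes were called in controls and 9.02% in EC-KO mice, with each low-flow arm 1 library.

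The low-flow libraries with number 1 stood apart. In control mice Apln was at 0.10, 11.8 and 29.2 FPKM in low-flow libraries 1, 4 and 5, and at 0.226 and 0.237 in the high-flow libraries. Esm1 was at 0.154, 33.7 and 127 FPKM at low flow and at 0.0693 and 0 at high flow, where 2 counts against 3480 give a ratio of 1110 (counting interval 308 to 9180). Igfbp3 was at 0.0788, 367 and 35.6 FPKM against 0.444 and 0.0387. Library 1 was near the high-flow level in all 3 genes, below both high-flow libraries for Apln and above both for Esm1, and libraries 4 and 5 were far above it. EC-KO mice had the same split, with Apln at 0.197, 2.30 and 4.01 FPKM, Esm1 at 0.0548, 1.16 and 42.8 and Igfbp3 at 0, 193 and 9.54 at low flow. Apln in EC-KO library 1 was above the 0.0632 and 0.0741 FPKM of the EC-KO high-flow libraries. Klf2, a factor that laminar flow raises, did not put these libraries with high flow: it was at 69.0 FPKM in control library 1 and 62.1 in EC-KO library 1, against 448 to 1138 FPKM in the 4 high-flow libraries. Both libraries with number 1 were sequenced in run 2, and the other low-flow libraries in runs 3 and 4. Smooth muscle genes were at 0.11% to 0.177% of counts in the 6 low-flow and 0.0275% to 0.0392% in the 4 high-flow libraries. Macrophage genes were at 0.00942% to 0.0641% at low and 0.00181% to 0.00513% at high flow in controls and at 0.0601% to 0.0909% and 0.00357% to 0.00495% in EC-KO mice. Endothelial genes in controls were at 0.582% to 1.2% at low and 1.68% to 1.74% at high flow. These cells moved with flow, and their part in these levels was not tested.

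With the libraries numbered 4 and 5 alone, an alternative chosen after the data were seen, 4 of the 8 genes were called in controls, where 29.2% of genes were called. Apln was higher by 6.40 ± 0.61 on the log2 scale (adjusted p = 5.8e-04), Esm1 by 10.80 ± 2.17 (adjusted p = 0.0083), Igfbp3 by 9.49 ± 1.99 (adjusted p = 0.0097) and Mcam by 1.68 ± 0.29 (SE, adjusted p = 0.0048). With all libraries these 4 had log2 fold changes of 5.81, 10.23, 8.92 and 1.29 and adjusted p of 0.11, 0.13, 0.17 and 0.21. Leaving out control library 1 alone gave the same 4 calls, where 29.4% of 13251 genes were called. In EC-KO mice 4 genes were called with libraries 4 and 5, where 8.36% of genes were called: Apln (log2 fold change 5.43, adjusted p = 0.0043), Esm1 (8.05, adjusted p = 0.043) and Igfbp3 (9.75, adjusted p = 0.03) were higher and Plvap was lower (−1.18, adjusted p = 0.019). Plvap was at 136, 127 and 127 FPKM at low flow in EC-KO mice and at 318 and 255 at high flow, without overlap (all libraries: log2 fold change −1.15, adjusted p = 0.058). Capillary genes were at 0.0401% to 0.0496% of counts at low and 0.114% to 0.157% at high flow in the same mice, and endothelial genes at 0.859% to 1.04% and 1.79% to 1.84%, and their part in the level of Plvap was not tested. Angpt2 was called with all libraries, with log2 fold changes of 3.45 in controls (adjusted p = 0.03) and 5.55 in EC-KO mice (adjusted p = 0.012).

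**Figure D4:**
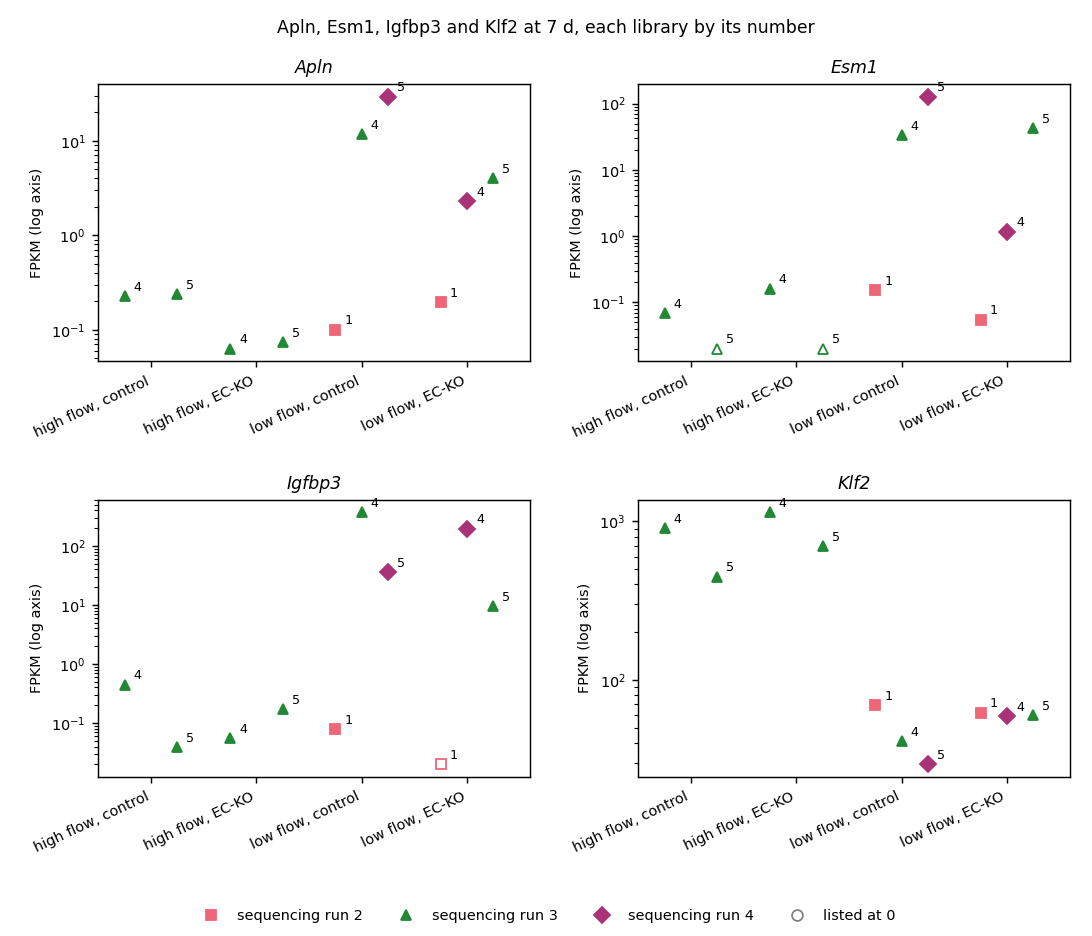
Levels of Apln, Esm1, Igfbp3 and Klf2 at 7 days in FPKM on log axes, each library marked by its number and its sequencing run. In both genotypes the low-flow library with number 1 is near the high-flow level of Apln, Esm1 and Igfbp3, far below libraries 4 and 5 and not within the high-flow range of every gene, and with the other low-flow libraries for Klf2.

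Whether Rbfox2 in endothelium alters these genes was asked by setting EC-KO beside control libraries. At low flow none of the 8 was called, and 0% of 13352 genes were called by edgeR, with 880 at an unadjusted p under 0.05, none of them among the 8, and 11 called by DESeq2, none of the 8 either. This count turned on control library 1: without it 11.1% of 13251 genes were called, Apln among them (adjusted p = 0.044). Apln had a log2 fold change of −2.67 (adjusted p = 0.69). It was lower in EC-KO than in control libraries for numbers 4 and 5 (2.30 and 4.01 FPKM against 11.8 and 29.2), and higher for number 1. With numbers 4 and 5 alone it was the one gene of the 8 called (log2 fold change −2.71 ± 0.49, SE, adjusted p = 0.04), where 2.84% of genes were called. Fibroblast genes were at 0.086% to 0.284% of counts in the low-flow EC-KO and 0.0254% to 0.0816% in the low-flow control libraries, without overlap, and macrophage genes at 0.0601% to 0.0909% and 0.00942% to 0.0641%, and their part in these levels was not tested. Within each of the numbers 1, 4 and 5 Esm1 was lower in the EC-KO library (0.0548, 1.16 and 42.8 FPKM against 0.154, 33.7 and 127). Igfbp3 was lower there too (0, 193 and 9.54 FPKM against 0.0788, 367 and 35.6), although number 1 held only 2 and 5 counts of Esm1 and 0 and 3 of Igfbp3. With the number as a block the log2 fold changes were −1.87 for Apln, −2.59 for Esm1 and −1.37 for Igfbp3 (unadjusted p = 0.018, 0.02 and 0.038, adjusted p = 0.44 for each). In that fit 0 of the 13352 genes were called by edgeR, with 1479 at an unadjusted p under 0.05. At high flow none of the 8 was called, where 0.00749% of genes were called, with an adjusted p of 1.0 for each, none at an unadjusted p under 0.05 and none by DESeq2. In the test of whether the flow response differed between genotypes, none of the 8 was called and 0% of all genes were called, with 538 at an unadjusted p under 0.05 and 21 called by DESeq2, none of the 8 in either. The adjusted p of the 8 genes in that test were 0.99 to 1.0.

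Aplnr had its only level above 1 FPKM in the whole series at 7 days, 2.35 FPKM in the low-flow EC-KO library 4. The other 41 libraries were at 0 to 0.570 FPKM, and 21 were listed at 0. Across the 14 groups with replicates, Apln had its highest means at low flow with PBS liposomes (14.1 ± 2.27 FPKM, SD, n = 2), in 7 day low-flow controls (13.7 FPKM, range 0.10 to 29.2) and at low flow with IgG (8.99 ± 1.63 FPKM, n = 2). The ranges of the first and the second overlap. Plvap, Mcam and Pdgfb were above 1 FPKM in all 42 libraries, Kcne3 in 38, Igfbp3 in 27, Esm1 in 25 and Apln in 22.

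Among the 35 carotid libraries, levels as log2(FPKM + 1) of Apln and Esm1 went together with Pearson r = 0.923 and those of Apln and Igfbp3 with 0.866. The value was 0.801 for Igfbp3 and Mcam, 0.796 for Mcam and Pdgfb and 0.795 for Esm1 and Igfbp3. These values describe libraries that share runs and flow groups. Of 11365 genes with a mean of at least 1 FPKM, those most like Apln included Mtap (r = 0.951) and Cct6a (0.935), and those most like Esm1 included Rars (0.959) and Ncl (0.952). Plvap was most like 1110008F13Rik (0.962) and Mcam most like Cdr2 (0.928). Kcne3 was most like Lgals9 (0.832) and Pdgfb most like Nfkbib (0.806). Aplnr was most like Apold1 (0.699) and was above 1 FPKM in only 1 library. How far the value depends on that library was not tested.

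In culture there was 1 library a condition, so no difference has a replicate check. In the aortic line, whose endothelial marker share of 0.0296% to 0.0373% of counts was below that of every carotid group, co-culture for 48 hr with platelets, bone-marrow-derived macrophages and 10% plasma gave the highest levels of Esm1, Igfbp3 and Apln. Aplnr was at 0.0892 FPKM there and listed at 0 in the other line cultures. Esm1 was at 1.74 FPKM without additions, 5.19 after plasma, 8.97 after the 2 cell types and 21.0 after all 3 (95% counting interval 19.4 to 22.6). Igfbp3 was at 1.60, 2.62, 1.95 and 34.6 FPKM in the same order (interval of the last 32.7 to 36.5), so that the culture with all 3 additions stood far above the others. Apln was at 2.36, 3.83, 3.51 and 5.89 FPKM.

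Mcam went the other way with plasma, at 43.3 FPKM without additions, 15.4 after plasma, 48.0 after the 2 cell types and 25.5 after all 3. Plvap was at 32.4, 182, 48.7 and 106 FPKM, highest with plasma alone, and Pdgfb at 2.22, 1.05, 4.63 and 4.77. Kcne3 was listed at 0 in 3 of the 4 line cultures and at 0.0824 FPKM in the fourth. The deposited RPKM of Kcne3 in these 4 cultures were 0.36 to 0.55, so that its level there depends on the scale used.

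Primary endothelial cells held more apelin than the line. Cells of Cdh5(PAC)-CreERT2 mice with the mTmG reporter, sorted for eGFP and kept 5 days in culture, were at 9.87 FPKM of Apln (interval 8.35 to 11.6), and cells sorted for Cd31 and Icam2 and kept 7 days in culture were at 57.1 FPKM in Rbfox2 controls (54.9 to 59.4) and 61.1 in Rbfox2 EC-KO (58.4 to 64.0). Rbfox2 was at 9.33 FPKM in that control and 0.675 in that EC-KO culture. Igfbp3 was at 74.7 FPKM in the control and 63.6 in the EC-KO culture, Esm1 at 16.9 and 15.5, Pdgfb at 19.1 and 19.3, Mcam at 272 and 323 and Plvap at 388 and 254. Of these 6 genes Plvap was the furthest apart between the 2 cultures. Kcne3 was at 1.5 and 1.62 FPKM there (deposited RPKM 2.13 and 2.66) and at 10.6 in the eGFP cells, which were sequenced in another run, and Aplnr was listed at 0 in both.

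**Figure D5:**
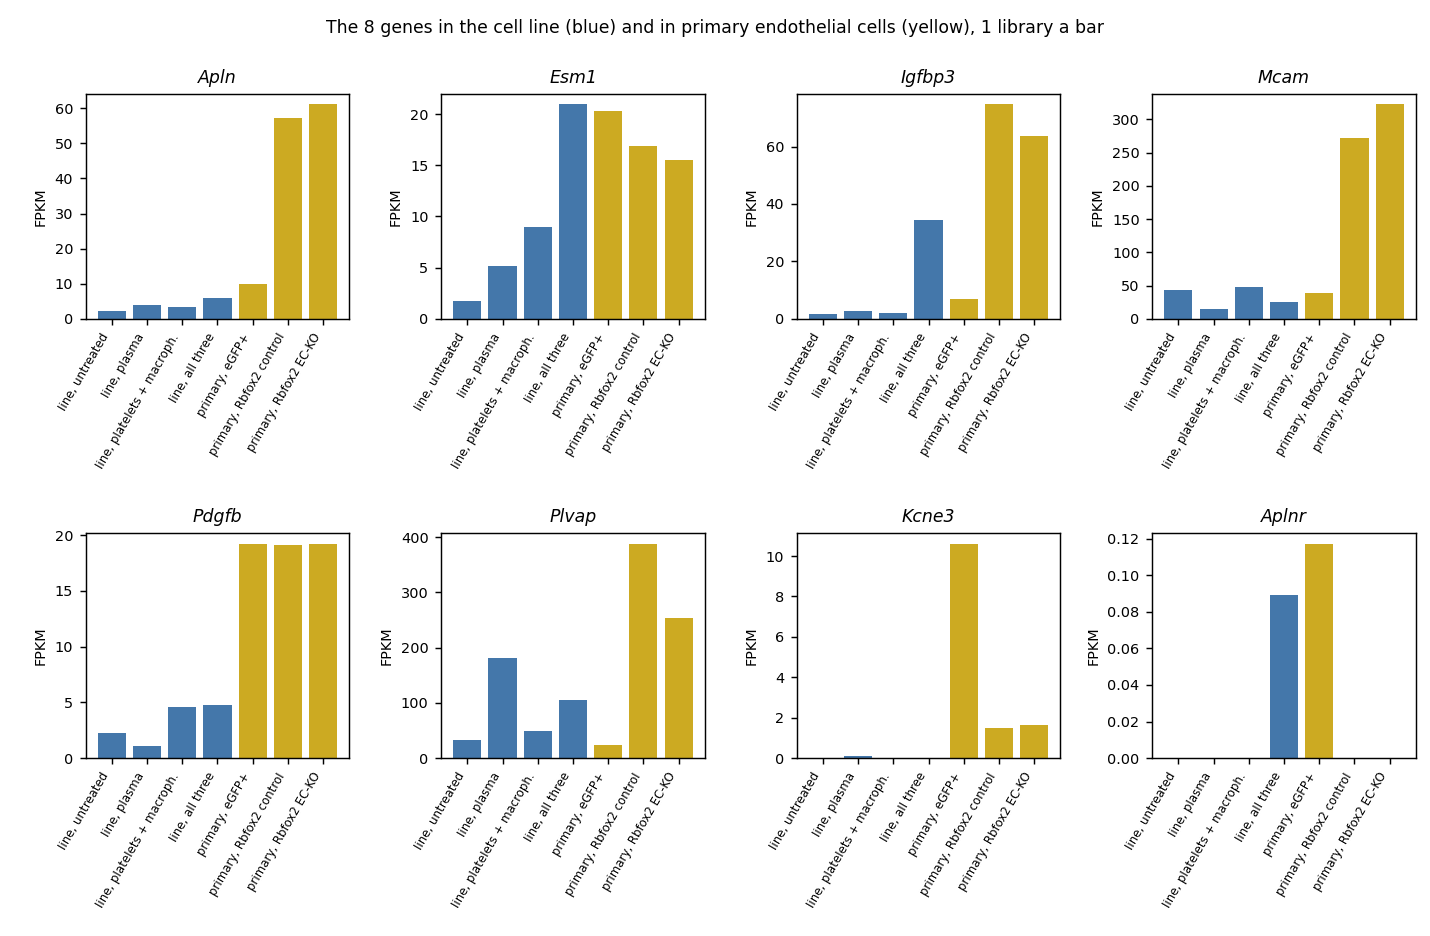
Levels of the 8 genes in FPKM in 4 cultures of the aortic line (blue) and 3 of primary endothelial cells (yellow), 1 library a bar, each panel with its own axis from 0. Among the line cultures Esm1, Igfbp3 and Apln were highest with the 3 additions together, while Plvap was highest with plasma alone.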

How the data were processed

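RNA flushed from the carotid intima and RNA of cultured endothelial cells were sequenced by the authors in 4 runs of 100 bp or 150 bp reads. The deposited table holds RSEM expected counts per gene, and the submitters' processing notes name STAR 2.5.1b, RSEM 1.2.15 and mm9. The study's methods name Tophat and Bowtie2 for the trimmed reads of the untreated pools, and whether the deposited counts of these pools rest on that mapping was not settled, which limits setting their levels beside those of treated libraries. The deposited RPKM values of the 7 cultures, made by the authors, were used only as an alternative scale. Of 204 value columns 49 were used, and 155 belonging to other runs or units were not used here. Of 21675 entries 1 named no gene and was left out. Counts were rounded to whole numbers (5.2% to 19.32% of values were not whole). Comparisons were fitted with edgeR 4.0.16 (quasi-likelihood test, filterByExpr, TMM, two-sided, Benjamini-Hochberg adjustment over all genes tested, threshold 0.05) in R 4.3.3. Each untreated comparison was fitted on its 2 groups, the 7 treated groups together and the 4 groups at 7 days together. High flow, low flow and sham shared libraries between comparisons, as did both antibody groups with IgG. FPKM were computed from counts, library totals and effective lengths in Python 3.11.15 with pandas 2.3.3, and counting intervals with scipy 1.17.1. Totals of 4064477 to 19035957 and 2 or 3 libraries a group limit precision. A library listed at 0 could hold 3 counts.

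The 8 genes and all gene lists were chosen with earlier results of these data known. Named were all 8 genes and, of each list, up to 2 genes that rose most and up to 2 that fell most at low against high flow in untreated mice, among those called whose groups did not overlap. The 3 genes most like each member were found by Pearson correlation of log2(FPKM + 1) over 35 libraries, and some of them are not reported here. Alternatives were DESeq2 1.42.0, upper-quartile scaling, no filter, leaving out each library, the replicate block, the 2 groups alone and single runs. Chosen after the data were seen were library totals without TMM, numbers 4 and 5 alone and low-flow pool c alone. Same-numbered 7 day low-flow libraries of both genotypes deviated together (r = 0.164 to 0.486 over 3 numbers). Between flows r was 0.145 in controls and 0.009 in EC-KO mice. The number was used as a block only as an alternative, and the main fits were unpaired. Positions are from GENCODE vM1 on mm9, start-site sequences from RefSeq on GRCm38.p6.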

Additional observations from a re-analysis of the deposited data

Results flagged for a closer look

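A pair of single low-flow libraries at 48 hr, sequenced with 100 bp reads, entered no comparison because each was alone in its group. Their levels of 6 of the 8 genes were above those of all 3 untreated high-flow pools of the same run. With PBS liposomes Apln was at 4.33 FPKM, Esm1 at 123, Igfbp3 at 48.6, Mcam at 44.9, Pdgfb at 37.8 and Plvap at 44.3. With clodronate liposomes Apln was at 3.72 FPKM, Esm1 at 44.0, Igfbp3 at 6.94, Mcam at 45, Pdgfb at 33.4 and Plvap at 62.8. Kcne3, at 5.73 FPKM with PBS and 5.66 with clodronate liposomes, was below all 3 pools, and Aplnr, at 0.112 and 0, was within their range. Esm1 and Igfbp3 were thus lower with clodronate than with PBS liposomes and Plvap was higher, in 1 library each. No group of the series held 4 or more samples, so no single sample was tested against its group.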

How the results depend on the processing

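Under the alternatives 132 of the main values and counts stayed the same and 34 moved. Over all genes, DESeq2 against edgeR called 3683 against 2216 with anti-GPIba, 462 against 16 with clodronate, and 2207 against 320 and 948 against 146 between flows in 7 day control and EC-KO mice. With anti-GPIba edgeR called 2216 of 13401 genes, and 2532 of 16665 with no filter. It called 3307 of 13401 with the replicate block and 4449 of 12892 with the 2 groups alone. Between flows in EC-KO mice it called 118 of 13352 with upper-quartile scaling and 221 of 16094 with no filter. With low-flow pool c alone the count of the 8 genes called against sham went from 6 to 0. Of the 8 genes DESeq2 called 1 between high flow and sham. With anti-GPIba, 2 of the 8 genes were called, 4 with DESeq2, 4 with no filter, 4 with the replicate block, 6 with the 2 groups alone and 0 without any 1 library. With anti-Gr1, 1 was called with the 2 groups alone (1.76% of all genes), and with clodronate 0 to 1 with 1 library left out. With 1 library left out, 2 to 4 genes were called between flows with IgG and 1 to 3 with PBS liposomes. EC-KO against control at low flow gave 0 to 1 with 1 library left out, 1 within the run that holds most libraries (Igfbp3, where 1.21% of all genes were called) and 1 with numbers 4 and 5 (Apln). In that run each low-flow arm was 1 library, control 4 and EC-KO 5, assumed to vary like the other groups. Low against high flow in 7 day controls gave 3 with DESeq2, 0 to 4 with 1 library left out, and 4 each with the replicate block, within the run and with numbers 4 and 5. In EC-KO mice it gave 2 with DESeq2, 1 each with upper-quartile scaling, no filter and the 2 groups alone, and 4 each with the replicate block, within the run and with numbers 4 and 5. Why these counts moved was not tested. The log2 fold change of Igfbp3 between EC-KO and control at low flow ran from −4.84 to 1.94 with 1 library left out. The replicate block changed no other count of the 8 genes by over 1.5 times. Over all genes it called 64 against 16 with clodronate, 4 against 1 between genotypes at high flow, and 2940 against 320 and 1317 against 146 between flows in 7 day controls and EC-KO mice. For the untreated pools no paired analysis was possible because they carry letters and not the numbers of the labels. The sum of both runs of the untreated pools was not run.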
